A study of Homo sapiens with 9 samples.

Results

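Clone 1 of a PC9 reporter line was profiled in 6 of the 9 libraries of the series: 3 from cells treated with osimertinib for 28 days (G1, S and G2) and 3 from untreated cells, called day 0 (G1, S and G2). Each day 28 library was set against the day 0 library of the same sorted phase. The mean of the 3 within-phase differences is the change at matched sorted phase. Each gene was represented by the listed transcript with the highest mean over the 9 libraries, which gave 20435 genes, of which 14237 had enough reads to be tested. PC9 is a human lung adenocarcinoma line with an activating mutation of the epidermal growth factor receptor (EGFR), and clone 1 is a single clone of it. All cells carried the FUCCI4 reporter, whose CDT1 and geminin (GMNN) fusion proteins mark the phases by colour. Day 28 cells were kept in 500 nM osimertinib and day 0 cells had none. Cells of both days were fixed with glyoxal, permeabilised with saponin and sorted by DNA content and reporter colour before strand-specific poly(A) RNA-seq. The other clone of the series, clone 7, gave a G1 library at each day and an S library at day 0.

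Mutant EGFR keeps the RAS-ERK and PI3K-AKT pathways active, and osimertinib blocks it by binding covalently to the kinase. Cells that live through weeks of such a drug are called drug-tolerant persisters, most of which cycle slowly or not at all. Entry into S phase depends on E2F factors released from the retinoblastoma (RB) family, and the genes of G2 and mitosis are held down in resting cells by the DREAM complex, which contains an RB relative.

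The 6 libraries held 30.5 to 108.7 M reads (M for mega). Mitochondrially encoded RNA made up 6.07 to 6.64% of each day 0 library and 15.8 to 21.6% of each day 28 library. Olfactory receptor genes served as a gauge of stray reads, and their density per M reads was 0.00115 to 0.00365 per kb at day 0 and 0.00781 to 0.0272 per kb at day 28. Day 28 G2 stood apart: 115 genes had no read there and at least 10 reads in each of the other 5 libraries, against 0 to 29 such genes in any other clone 1 library. The 9 markers of carcinoma epithelium (EPCAM, KRT7, KRT8, KRT18, KRT19, CDH1, ELF3, CLDN4 and ESRP1) summed to 20830 to 30040 of each M reads at day 0 and 12480 to 13440 at day 28, and EPCAM, KRT7, KRT8 and KRT18 fell. The 10 leukocyte markers summed to 5.93 to 13.3 per M reads at day 0 and 3.65 to 4.21 at day 28, the 8 fibroblast markers to 12.8 to 17.3 and 15.3 to 28.3, and the 7 endothelial markers to 6.64 to 11.4 and 4.36 to 18.4, with CLDN5 at 0. The 8 neuroendocrine markers gave 3.60 to 4.34 at day 0 and 15.8 to 19.0 at day 28, with INSM1 and NEUROD1 at 0 reads in all 6 libraries. The 7 squamous markers gave 14.1 to 41.9 and 28.8 to 35.2. The part of these signals in the results was not tested.

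After 28 days 4410 genes were higher and 3294 were lower (limma, adjusted p under 0.05), which are 31.0% and 23.1% of the 14237 genes tested. Of the called genes, 3602 rose and 1996 fell by at least 2-fold, and 272 rose and 40 fell by at least 16-fold. All 3 day 28 values lay above all 3 day 0 values in 4665 genes (32.8%) and below them in 3439 (24.2%). The 3 phases moved one way in 7606 of the 7704 called genes. The call rests on the same 3 differences, so this count is no separate support. The labels do not say whether the 3 phases of a day came from separate cultures, so the spread between these libraries may be technical. The p-values rest on that spread after limma drew it toward a trend over all tested genes. Of 19.3 degrees of freedom, 2 came from the libraries of the gene itself. In bulk RNA of sorted cells, fewer cells with a transcript and less of it per cell cannot be told apart.

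How the calls split depended on the scaling. Higher genes made up 57.2% of the calls with the deposited scaling, 78.1% when libraries were scaled to the reads outside the mitochondrial genome, 46.4% with quantile scaling and 43.3% after removing the trend with gene span. The median log2 fold change over all tested genes was 0.16 as deposited, 0.58 with the non-mitochondrial scaling, -0.02 with median-of-ratios scaling and -0.10 with quantile scaling. The list medians given here use the deposited scaling and are to be read against 0.16. Counts of called list members are to be read against 31.0% higher and 23.1% lower of all tested genes. With quantile scaling 2963 of all tested genes were higher and 3418 lower. Without the G1 pair the calls were 3873 and 2928, without the S pair 3258 and 2454, and without the G2 pair 4128 and 2912.

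The length of a gene's listed span moved with the result. Of 611 genes over 300 kb, 545 rose and 4 fell, with a median log2 fold change of 2.97. Of the 3827 genes of at most 10 kb, 633 rose and 1308 fell, with a median of -0.38. With the olfactory read density subtracted, the median over 300 kb was 1.54, and in the G1 pair of clone 7 it was 0.89. Spans over 300 kb took 0.733 to 0.880% of reads at day 0 and 2.06 to 3.41% at day 28. The part of stray reads or unspliced RNA in the change of long genes was not tested.

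**Figure D1:**
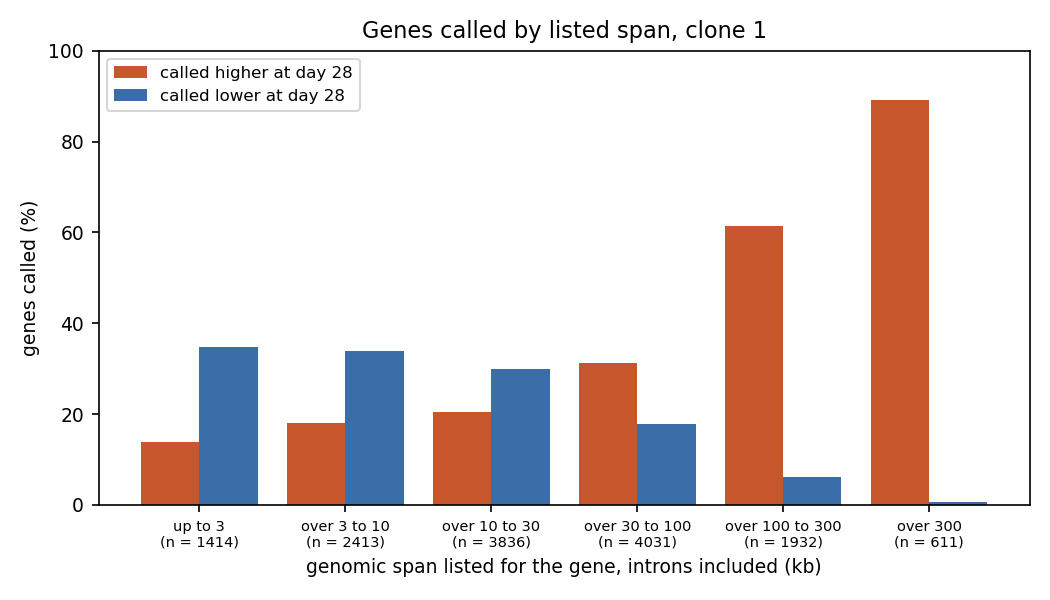
Percentage of tested genes called higher or lower at day 28 in clone 1, by the genomic span listed for the gene in kb, with the number of tested genes in each class. The share called higher climbs from 13.9% up to 3 kb to 89.2% over 300 kb, and the share called lower falls from 34.7% to 0.655%.

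The first question was what the drug's target and its pathway did. EGFR itself rose, and feedback genes of the ERK pathway fell. EGFR (ENSG00000146648, chr7:55019278-55205617, GRCh38) had log2 values of 12.52, 12.41 and 12.87 in G1, S and G2 at day 0, and of 15.20, 14.32 and 14.28 at day 28. Every day 28 value lay above every day 0 value, and the log2 fold change was 2.0 ± 0.25 (SE, adjusted p = 4.18e-06). With the span trend removed the log2 fold change of EGFR was smaller, at 0.64, and the gene was still called higher. A log2 value is log2(deposited value + 1) throughout, and values given in threes are in the order G1, S and G2. A fold change is the mean phase-matched difference of such values over 3 pairs. The value after ± is limma's moderated standard error, whose variance is drawn toward a trend over all tested genes. Adjusted p is limma's with Benjamini-Hochberg adjustment.

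Of 28 tested genes that ERK signalling drives, 16 fell and 6 rose (median -0.97), against 23.1% and 31.0% of all genes. DUSP4 and DUSP6 encode phosphatases that switch off ERK. DUSP4 went from 11.97, 12.23 and 11.72 to 7.05, 8.19 and 7.59, a log2 fold change of -4.36 ± 0.34 (adjusted p = 1.79e-08). DUSP6 went from 10.70, 9.95 and 9.48 to 6.64, 6.21 and 6.84, or -3.48 ± 0.47 (adjusted p = 1.04e-05). In neither gene did the days overlap. PHLDA1 (-4.29 ± 0.44), the ETS-family transcription factors ETV4 (-3.35) and ETV5 (-2.56), and the AP-1 subunit FOSL1 (-2.49) fell too. CCND1, the D-type cyclin of G1 progression, fell by 0.97 ± 0.28 (adjusted p = 0.00627), from between 12.20 and 12.28 to 10.65, 11.21 and 11.97. MYC, a growth-promoting transcription factor, fell by 0.86 ± 0.25 (adjusted p = 0.00639). MYC did not pass without the G1 pair (-0.53), and neither gene passed with the non-mitochondrial scaling. CCND1 was over 1.5 times smaller without the G1 pair (-0.64). MYC (-0.64) did not pass with quantile scaling.

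Some genes of the list moved the other way. The immediate-early genes FOS (2.46) and EGR1 (1.58) rose, as did the EGFR ligand gene EREG (2.55), while the ligand genes AREG (-3.24) and HBEGF (-1.82) fell. EPHA4, an ephrin receptor, rose from 9.24, 8.33 and 9.15 to 14.06, 12.04 and 12.64, or by 4.0 ± 0.30 (adjusted p = 1.26e-08). EREG did not pass when any 1 of the pairs was left out (2.28 to 2.73), AREG without the G2 pair (-1.15) and HBEGF without the S pair (-1.78). EREG (1.03) did not pass with quantile scaling.

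Of 28 receptor tyrosine kinases 14 rose and 6 fell (median 0.65). These are 50% and 21.4%, against 31.0% and 23.1% of all tested genes. The insulin receptor INSR (2.71 ± 0.34) and its relative IGF1R (1.61) rose, although IGF1R stood at -0.24 with the span trend removed. MET, the hepatocyte growth factor receptor, rose by 0.99 ± 0.30 (adjusted p = 0.0103), from between 9.55 and 10.10 to between 10.61 and 10.89, and did not pass without the S pair. AXL, a receptor of GAS6, fell by 2.22 ± 0.27 (adjusted p = 2.64e-06), from between 12.20 and 12.55 to between 9.87 and 10.70. The EGFR partners ERBB2 (0.19 ± 0.24, adjusted p = 0.528) and ERBB3 (0.26 ± 0.25, adjusted p = 0.379) did not pass. The median span of the list was 71.0 kb against 26.2 kb for all genes, and with the olfactory density subtracted its median was 0.22, with 6 genes higher and 3 lower. ERBB2 (0.61) and ERBB3 (0.68) passed with the non-mitochondrial scaling. MET (0.65) did not pass with quantile scaling. MET (0.23) did not pass with the span trend removed. INSR (1.40) was over 1.5 times smaller with the span trend removed.

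Matching by phase asked whether cell cycle genes differed between the days within a phase. Whether the cells of a sorted phase had the same make-up on both days was not tested. Of 48 G1/S genes and E2F targets 24 fell and 2 rose (median -0.83), and of 57 genes of G2 and mitosis 30 fell and 0 rose (median -0.59). The G1/S median was -1.66 in the G1 pair, -0.22 in the S pair and -0.57 in the G2 pair. For G2 and mitosis it was -1.24, -0.37 and -0.37. Without the G1 pair 17 and 21 genes of the lists fell, and 4 and 2 rose. With the non-mitochondrial scaling 15 and 18 fell and 4 and 2 rose, while 1714 of all tested genes fell and 6103 rose.

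CCNB1, the cyclin of mitotic entry, differed both between phases and between days. It stood at 13.38, 15.41 and 17.26 at day 0 and at 11.59, 14.21 and 16.06 at day 28. Each day 28 value was below that of its phase, although the groups overlap, and the log2 fold change was -1.40 ± 0.23 (adjusted p = 6.52e-05). MKI67, the proliferation marker Ki-67, stood at 11.28, 14.0 and 14.98 at day 0 and at 9.45, 13.75 and 14.76 at day 28. Its log2 fold change of -0.77 ± 0.28 (adjusted p = 0.0268) was largest in G1: without the G1 pair it was -0.24 and did not pass. MKI67 (-0.35) did not pass with the non-mitochondrial scaling. MKI67 (-0.63) did not pass with quantile scaling.

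Genes of replication fell as well. MCM6, a subunit of the replicative helicase, went from 14.16, 13.65 and 11.89 to 11.68, 12.21 and 9.56, or by a log2 fold change of -2.09 ± 0.26 (adjusted p = 3.46e-06). RRM1, the large subunit of ribonucleotide reductase, went from 12.93, 13.97 and 13.53 to 11.07, 12.55 and 11.72, or by a log2 fold change of -1.70 ± 0.23, with no overlap of the days. GINS2 (-1.72 ± 0.31), part of the same helicase, and PRIM1 (-1.59 ± 0.33), a primase, were lower in every phase, and least so in S (-0.84 and -0.40). CCNE2, a cyclin of S phase entry, had 10.89, 8.87 and 5.56 at day 0 and 10.17, 10.97 and 1.62 at day 28. It was lower in G1 and G2 and higher in S, and its mean of -0.85 ± 0.74 did not pass (adjusted p = 0.342). CCNE2 passed without the S pair (-2.33).

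Among mitotic genes the largest falls were in CENPA, the centromeric histone (-2.09 ± 0.46), MAD2L1, a checkpoint protein of the spindle (-1.99 ± 0.28), TPX2, a spindle assembly factor (-1.76 ± 0.26), and BIRC5, a subunit of the chromosomal passenger complex (-1.70 ± 0.31). MAD2L1 had 11.54, 12.35 and 12.93 at day 0 and 8.91, 10.97 and 10.96 at day 28, with no overlap. CENPA differed by -3.79 in G1, -1.91 in S and -0.56 in G2. CENPA was over 1.5 times smaller without the G1 pair (-1.23).

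The best known inhibitors of cyclin-dependent kinases did not pass with the deposited scaling. CDKN1A (p21) stood at -0.16 ± 0.50 (adjusted p = 0.800), and at 0.26 with the non-mitochondrial scaling. CDKN1B (p27) stood at 0.03 ± 0.24 (adjusted p = 0.923), and at -0.14 with median-of-ratios scaling. CDKN1C (p57) stood at -1.07 ± 0.61 (adjusted p = 0.141), and passed as lower with quantile scaling (-2.27), in both fits over all 9 libraries (-1.10 with the clone as a block and -1.09 without it) and without the variance trend. In the list of these inhibitors and the RB family 7 of 17 rose and 1 fell (median 0.52), or 4 and 2 with quantile scaling. The shares were 41.2% and 5.88% with the deposited scaling, against 31.0% and 23.1% of all tested genes. The genes that rose include the inhibitor gene CDKN2B (1.28) and DREAM subunits: RBL2 (1.40 ± 0.24), also called p130, LIN52 (2.18 ± 0.28), LIN37 (1.25) and LIN9 (0.90). DYRK1A, the kinase that phosphorylates LIN52, rose by 2.44 ± 0.35 (adjusted p = 2.04e-05). LIN52 had 9.27, 9.80 and 10.09 at day 0 and 11.76, 12.07 and 11.89 at day 28, with no overlap. LIN9 did not pass without the S pair (0.78). CDKN2B (0.73) and LIN9 (0.65) did not pass with quantile scaling. LIN9 (0.33) did not pass with the span trend removed. LIN52 (1.29) was over 1.5 times smaller with the span trend removed.

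**Figure D2:**
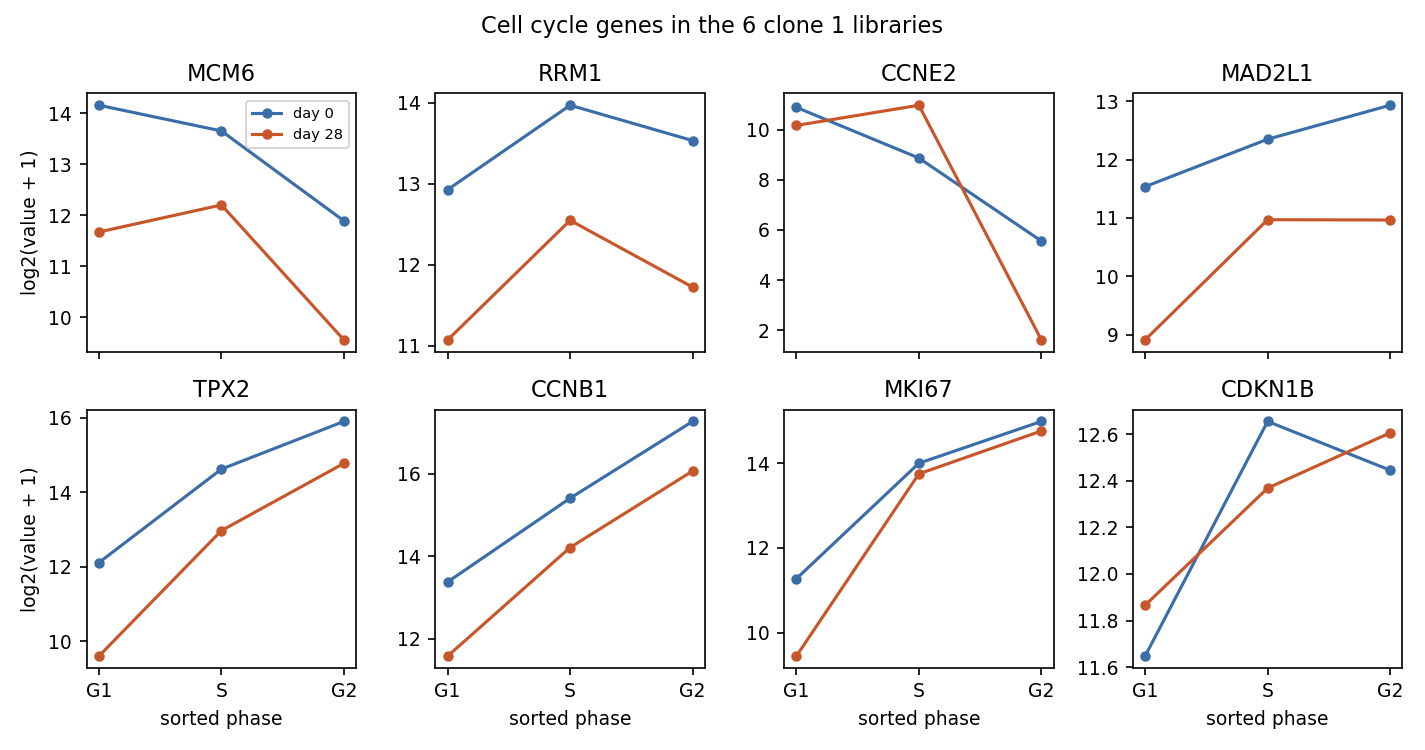
Log2 values of 8 cell cycle genes in the 6 clone 1 libraries, by sorted phase, at day 0 (blue) and day 28 (orange), with 1 library a point. TPX2, CCNB1 and MKI67 climb from G1 to G2 on both days, and the day 28 line of MAD2L1, TPX2, CCNB1, MCM6 and RRM1 lies below the day 0 line in each phase, while the lines of CDKN1B cross.

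Promoters of these genes carry cell cycle elements, and a stretch of each of 4 is shown so that the elements can be seen. RefSeq promoter windows (GRCh38.p14, 250 bases before to 50 after the gene start) were matched by symbol for 11221 of the tested genes. The sequences run 5′ to 3′ on the gene's strand. Capitals mark the cell cycle homology region (CHR, TTTGAA or TTCGAA) in MAD2L1 and CENPA and E2F motifs (TTTCCCGC, TTTGGCGC or TTTCGCGC) in MCM6 and GINS2, searched on both strands.
MAD2L1, chr4:120066799-120066884, minus strand: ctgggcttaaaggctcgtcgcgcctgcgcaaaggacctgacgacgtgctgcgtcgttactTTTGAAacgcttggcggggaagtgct
CENPA, chr2:26785978-26786103, plus strand: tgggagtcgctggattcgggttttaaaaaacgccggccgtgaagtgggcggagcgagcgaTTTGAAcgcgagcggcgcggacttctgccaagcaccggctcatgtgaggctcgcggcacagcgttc
MCM6, chr2:135876462-135876655, minus strand: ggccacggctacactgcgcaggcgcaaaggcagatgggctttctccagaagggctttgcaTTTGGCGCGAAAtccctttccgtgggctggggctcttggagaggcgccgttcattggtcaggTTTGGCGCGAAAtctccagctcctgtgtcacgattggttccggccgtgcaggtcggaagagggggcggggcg
GINS2, chr16:85688918-85689045, minus strand: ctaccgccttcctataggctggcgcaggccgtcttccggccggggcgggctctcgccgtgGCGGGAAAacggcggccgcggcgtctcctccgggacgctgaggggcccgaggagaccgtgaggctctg
A CHR was found in 34 of 49 windows of the G2 and mitosis list (69.4%), against 11.5% of tested genes and 16.6% of all windows. It was in 15 of 23 windows of members that fell and in 19 of 26 of members not called. An E2F motif was in 21 of 42 windows of the G1/S list, against 4.57% of tested genes and 2.79% of all windows. It was in 9 of 21 windows of members that fell and in 11 of 20 of members not called. A match is a description of letters and not evidence of binding.

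The largest rises were in genes with few reads at day 0. MYL7, the atrial light chain of myosin (ENSG00000106631, chr7:44138921-44141305), gave 0, 2 and 0 reads at day 0 and 1023, 1400 and 1751 at day 28 (adjusted p = 2.00e-08). Its ratio at equal depth was 3230, with an exact 95% interval of 893 to 26677 that covers counting error only. TAC3, the gene of neurokinin B, gave 2, 2 and 2 reads at day 0 and 550, 508 and 669 at day 28, a ratio of 445 (204 to 1215). APOD, a lipid carrier of the lipocalin family, went from 11, 1 and 0 reads to 194, 157 and 319, a ratio of 86.4 (49.1 to 168). Fitted fold changes of these 3 genes depend on the pseudocount and are not given.

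LRP2 (megalin), a large endocytic receptor, rose from log2 values of 4.53, 5.06 and 5.48 to 12.78, 11.94 and 12.20, or by 7.28 ± 0.44 (adjusted p = 1.58e-09). FOLR1, a folate receptor, had 38, 4 and 1 reads at day 0 and rose by 6.91 ± 0.74. Its ratio at equal depth was 58.7 (43.4 to 81.4). GAB2, a docking protein of tyrosine kinase signalling, rose from 7.17, 6.03 and 7.63 to 13.66, 12.96 and 13.40, or by 6.39 ± 0.32 (adjusted p = 1.29e-10). The small heat shock protein gene CRYAB (6.82 ± 0.62), the microfibril gene MFAP5 (6.12 ± 0.60) and the cancer-testis antigen gene XAGE2 (6.11 ± 0.40) rose. IGFL1 (5.95), BLNK (5.92), an adaptor of B cell receptor signalling, and IQCN (5.90) followed. CRYAB had 45, 5 and 2 reads at day 0, and its ratio at equal depth was 62.1 (47.2 to 83.5). IQCN had 47, 14 and 2. The fitted sizes of genes with so few day 0 reads are uncertain. Ranked by moderated t the list adds the membrane mucin MUC16 (5.38 ± 0.25), the teneurin TENM2 (4.97 ± 0.27), the phosphatase PPM1H (4.91 ± 0.28), the cadherin FAT3 (4.58 ± 0.31), the actin-binding CALD1 (3.78 ± 0.23) and the kinases DCLK2 (5.50 ± 0.34) and CAMK1D (3.94 ± 0.26). The days did not overlap in any gene of this paragraph, which the naming rule required. TENM2 stood at -0.11 in clone 7. CAMK1D (1.66), FAT3 (2.17), PPM1H (3.13) and TENM2 (1.96) were over 1.5 times smaller with the span trend removed.

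TGM2, which encodes a cross-linking enzyme, fell the most among well-covered genes. Its log2 values were 15.06, 15.05 and 14.40 at day 0 and 7.97, 9.14 and 7.23 at day 28, a change of -6.72 ± 0.28 (adjusted p = 1.29e-11). IL1RL1, the interleukin 33 receptor, fell by 5.10 ± 0.87. AGR2 (-4.39), a disulfide isomerase of secretory cells, LGALS1 (-4.33), a galectin, and ANPEP (-3.94), an aminopeptidase, fell too. HMGA1, an architectural chromatin protein, had between 14.94 and 15.15 at day 0 and 10.52, 11.29 and 11.65 at day 28, a log2 fold change of -3.91 ± 0.25 (adjusted p = 2.70e-09). TGFBI, a matrix protein, fell from between 14.47 and 14.65 to between 11.34 and 11.67. The tissue plasminogen activator PLAT (-3.65 ± 0.28), the calcium-binding calretinin CALB2 (-3.28 ± 0.25), ARHGDIB (-3.10 ± 0.22) and the lysosomal thioesterase PPT1 (-2.86 ± 0.24) stood out by moderated t.

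SLC2A6, a sugar transporter, shows the weight of day 28 G2. It had 961, 259 and 112 reads at day 0 and 22, 15 and 0 at day 28. Its log2 fold change was -5.30 ± 0.91 with the G2 pair and -3.87 without it. Without the G2 pair KRT81, a hair-type keratin, went from -3.69 to -1.90 and GSTM1, a glutathione transferase, from -4.10 to -1.95. SCD, the stearoyl-CoA desaturase gene, was chosen after its values were seen. It had 11.30, 11.42 and 10.39 at day 0 and 6.75, 8.10 and 0.00 at day 28, and its log2 fold change was -6.08 ± 0.86 with the G2 pair and -3.93 without it. Each of these 4 genes had no read in day 28 G2. Of the largest differences that did not pass, RPL3L (-3.12), MAPK8IP2 (-2.47) and SOWAHB (-2.41) also had no read there. Reads of genes with close copies elsewhere, such as KRT17, KRT81, XAGE2, GSTM1 and HLA-F, may be misplaced between copies, so these values are uncertain. RPL3L passed without the G1 pair (-3.08) or without the S pair (-6.02), MAPK8IP2 without the G1 pair (-3.21) or without the S pair (-3.93) and SOWAHB without the G1 pair (-3.44) or without the S pair (-3.63). MAPK8IP2 (-2.40), RPL3L (-3.68) and SOWAHB (-2.34) passed with quantile scaling.

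**Figure D3:**
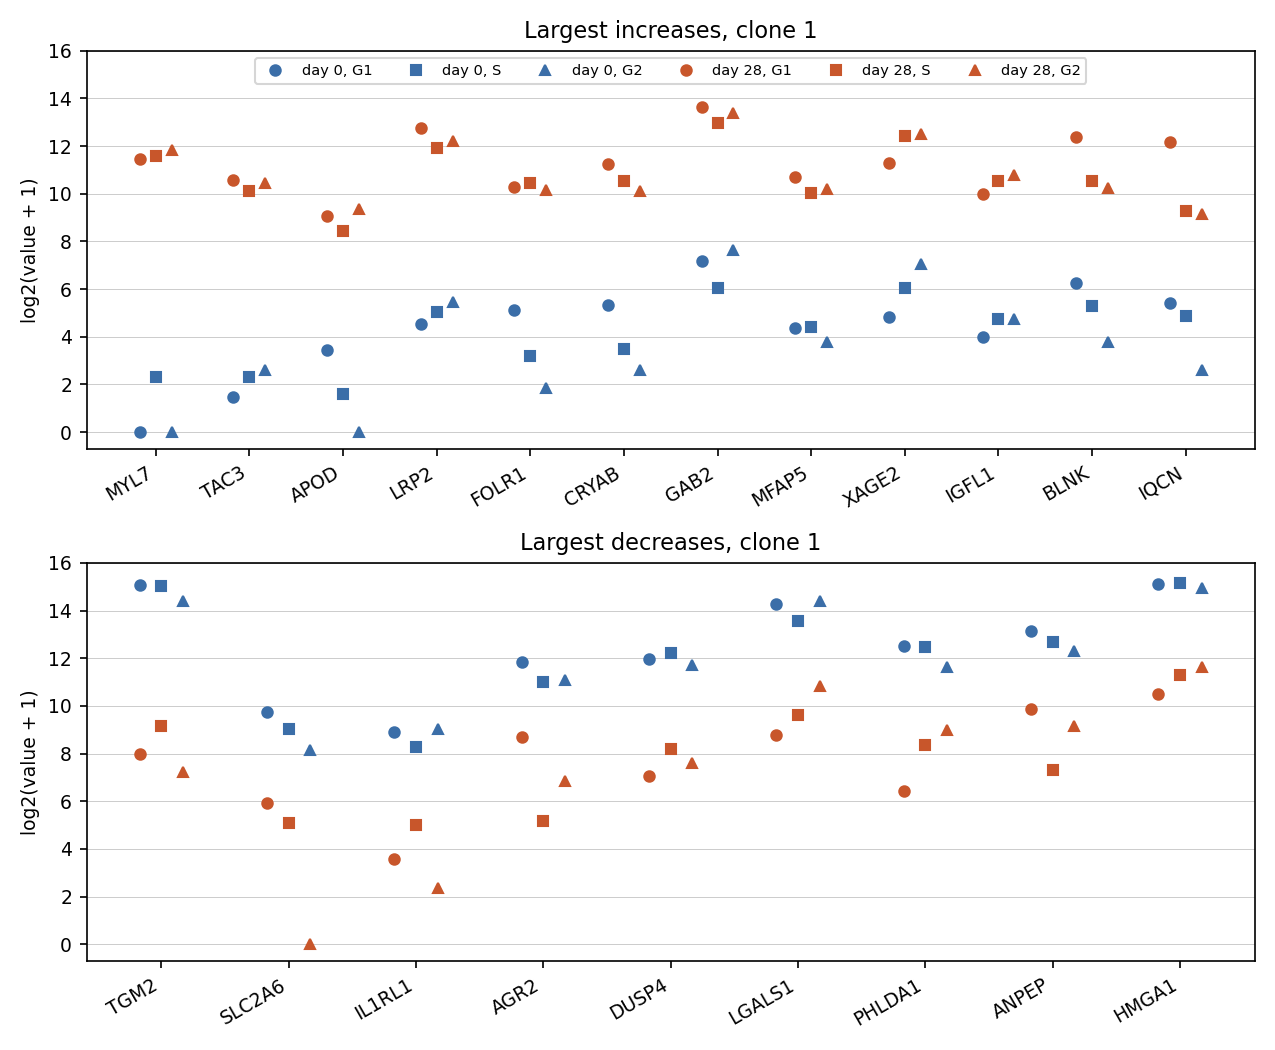
Log2 values of the 12 called genes with the largest increase and 9 of the 12 with the largest decrease that the naming rule admits, in each clone 1 library, with day 0 in blue, day 28 in orange and the phase given by the symbol. No gene shown has overlapping days, which the rule requires, and the day 28 G2 value of SLC2A6 lies at 0.

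Genes of biosynthesis were lower. Of 24 tested genes of cholesterol synthesis and uptake 22 fell and 0 rose (median -1.76). They include genes from the start of the pathway (ACAT2 (-2.76 ± 0.25), HMGCS1 (-1.48)) through squalene (FDFT1 (-1.66), SQLE (-2.12)) to its later steps (DHCR7 (-2.08)). ACAT2, an acetoacetyl-CoA thiolase, had 13.75, 13.76 and 14.15 at day 0 and 10.53, 11.53 and 11.31 at day 28 (adjusted p = 1.00e-07), with no overlap of the days. INSIG1, which retains the sterol sensor in the endoplasmic reticulum, fell by 2.61 ± 0.28. SREBF2 (-0.31), the main transcription factor of the pathway, and TM7SF2 (-0.16) did not pass. A strict sterol response element was found in 1 of 17 matched windows of the list and in 0.0446% of tested genes. It was in 0 of 15 windows of members that fell and in 1 of 2 of members not called. SREBF2 (-0.85) passed with the span trend removed.

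Of 24 glycolytic and lactate genes 16 fell and 3 rose (median -1.51). ENO1, enolase, went from 17.82, 17.89 and 17.91 to 14.58, 15.83 and 15.76, or by a log2 fold change of -2.49 ± 0.27 (adjusted p = 8.54e-07). The phosphofructokinase gene PFKP (-2.71 ± 0.22) and the lactate dehydrogenase gene LDHB (-2.39 ± 0.27) fell too. The glucose transporter gene SLC2A3 rose from 11.59, 11.90 and 10.99 to 14.31, 14.0 and 13.26, or by 2.37 ± 0.23 (adjusted p = 3.40e-07), as did PFKFB4 (1.21) and ENO2 (0.78). Without the S pair 1 rose, while calls of higher genes over all tested genes went from 4410 to 3258. Of 27 genes of the citric acid cycle 23 fell and 0 rose (median -1.07), among them the dehydrogenases IDH1 (-1.95 ± 0.24), DLD (-1.95 ± 0.24) and MDH2 (-1.78 ± 0.23). PFKFB4 did not pass without the G1 pair (1.02) or without the S pair (1.25) and ENO2 without the S pair (0.47). ENO2 (0.40) and PFKFB4 (0.65) did not pass with quantile scaling. ENO2 (0.61) did not pass with median-of-ratios scaling.

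Of 23 genes of nucleotide synthesis 17 fell and 1 rose (median -1.18). PAICS (-2.34 ± 0.25), ATIC (-1.65 ± 0.23) and GMPS (-1.61 ± 0.22) act in purine synthesis, and the days did not overlap in any of them. Of 14 subunits of the chaperonin CCT and of prefoldin, which fold actin and tubulin, 11 fell and 0 rose (median -1.34), with CCT4 (-1.94 ± 0.23) and CCT7 (-1.77 ± 0.26). Of 31 genes of the nuclear pore and nuclear transport 18 fell and 1 rose (median -0.62), with the importin IPO5 (-1.95 ± 0.23) and the GTPase RAN (-1.84 ± 0.26). In serine, glycine and one-carbon metabolism 8 of 21 fell and 4 rose (median -0.49), with AHCY (-2.30 ± 0.24), which clears S-adenosylhomocysteine. In that list 2 rose without the G1 pair and 2 rose without the S pair. The medians of these lists, of glycolysis, of the citric acid cycle and of cholesterol were below 0 under each scaling.

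Fat metabolism was mixed. Of 33 genes 14 fell and 4 rose (median -0.27, or 0.15 with the non-mitochondrial scaling). These are 42.4% and 12.1%, against 23.1% lower and 31.0% higher of all tested genes. CPT1B, a carnitine palmitoyltransferase that admits fatty acids to mitochondria, rose from between 11.95 and 12.17 to between 14.10 and 14.84, or by 2.33 ± 0.24 (adjusted p = 5.04e-07). The fatty acid ligases ACSL4 (-2.18 ± 0.34) and ACSL5 (-1.85 ± 0.30) and the lipid droplet protein PLIN3 (-1.73 ± 0.25) fell.

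FOXO factors, which AKT keeps out of the nucleus, and their targets rose in 13 of 24 cases and fell in 5 (median 1.15), or in 8 and 5 with quantile scaling. FOXO1 (3.31 ± 0.56), FOXO3 (2.37 ± 0.37) and PIK3R1 (2.03), the regulatory subunit of PI3-kinase, rose. BCL6, a transcriptional repressor, had 11.85, 11.62 and 10.68 at day 0 and 14.03, 13.73 and 13.18 at day 28, a rise of 2.26 ± 0.23 (adjusted p = 5.04e-07). TRIB2 (-1.89), IRS1 (-1.47), TRIB1 (-1.05), TXNIP (-0.88) and PINK1 (-0.72) fell. Of the same genes 2 fell without the S pair. IRS1 did not pass without the G1 pair (-0.90), TRIB1 without the S pair (-0.73), TXNIP without the S pair (-0.59) or without the G2 pair (-0.64) and PINK1 without the S pair (-0.79). IRS1 (-1.05), PINK1 (-0.30), TRIB1 (-0.63) and TXNIP (-0.47) did not pass with the non-mitochondrial scaling. TXNIP (-0.59) did not pass with the span trend removed. FOXO3 (1.56) was over 1.5 times smaller with the span trend removed.

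In the BCL2 family, which sets the threshold for apoptosis, 5 of 16 rose and 3 fell, shares of 31.2% and 18.8% against 31.0% and 23.1% of all tested genes (median -0.14, or 0.28 with the non-mitochondrial scaling). BCL2L11 (BIM), a killer that ERK signalling keeps low, rose from between 8.05 and 8.66 to between 9.98 and 10.21, or by 1.71 ± 0.37 (adjusted p = 8.42e-04). BCL2, which protects, rose from between 6.91 and 8.18 to between 9.98 and 10.71, or by 2.69 ± 0.40 (adjusted p = 2.49e-05). BAK1, a pore former, fell by 1.57 ± 0.40. BMF, another killer, rose by 1.48 ± 0.50 and did not pass without the G1 or the S pair. MCL1, a short-lived protector, stood at -0.42 ± 0.29 (adjusted p = 0.228). Without the G1 pair 3 rose and 1 fell, and without the S pair 3 rose and 1 fell. Calls over all tested genes dropped too, from 4410 higher and 3294 lower. They were 3873 and 2928 without the G1 pair and 3258 and 2454 without the S pair. BAK1 was over 1.5 times smaller without the G1 pair (-1.04). BMF (0.52) did not pass with quantile scaling. BCL2 (1.31) was over 1.5 times smaller with the span trend removed.

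Interferon-stimulated genes rose in 23 of 36 cases and fell in 0 (median 1.25). The list holds sensors of viral RNA, their transcription factors and antiviral effectors. IFI44 had 7.43, 6.70 and 6.08 at day 0 and 12.66, 9.72 and 9.29 at day 28, a rise of 3.82 ± 0.47 (adjusted p = 3.93e-06). EPSTI1 (3.86 ± 0.96) and OAS2 (5.03 ± 1.29) rose from few reads, and OAS2 did not pass without the G1 pair. The factors STAT2 (2.21), IRF9 (2.34) and IRF7 (2.16), the ubiquitin-like ISG15 (2.23) and the RNA sensor RIGI (1.66) rose, while IRF1 (-0.19) did not pass. The median was 1.92 in the G1 pair, 1.14 in S and 1.10 in G2. The count that rose was 14 without the G1 pair and 14 with quantile scaling. OAS2 (3.26) did not pass with quantile scaling.

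Windows of IFI44 and IFI6 are shown for their interferon-stimulated response elements, searched as a pair of GAAA sites in direct repeat with 2 bases between them, on both strands, and marked in capitals. IFI6 (3.43), with 3 matches, was chosen after its values were seen.
IFI6, chr1:27672216-27672408, minus strand: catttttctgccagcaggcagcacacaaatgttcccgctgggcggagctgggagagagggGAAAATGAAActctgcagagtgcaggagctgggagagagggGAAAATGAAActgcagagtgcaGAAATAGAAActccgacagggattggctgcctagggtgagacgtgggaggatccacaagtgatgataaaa
IFI44, chr1:78649711-78649838, plus strand: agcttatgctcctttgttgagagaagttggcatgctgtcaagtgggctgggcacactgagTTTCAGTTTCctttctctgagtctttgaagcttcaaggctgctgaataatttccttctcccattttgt
The element was in 19 of 29 matched windows of the list (65.5%), against 2.83% of tested genes and 3.65% of all windows. It was in 12 of 19 windows of members that rose and in 7 of 10 of members not called.

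Of 19 genes of antigen presentation by MHC class I 9 fell and 3 rose (median -0.32, or 0.10 with the non-mitochondrial scaling). These are 47.4% and 15.8%, against 23.1% lower and 31.0% higher of all tested genes. HLA-F rose by 1.38 ± 0.28, and the chaperones CANX (-1.14 ± 0.22) and CALR (-1.06 ± 0.24) fell. Among ligands and receptors of interleukin 6, TNF and chemokine signalling 6 of 21 rose and 4 fell (median -0.42), shares of 28.6% and 19.0% against 31.0% and 23.1% of all tested genes. In that list 3 rose without the S pair and 1 fell without the S pair. IL6 rose from 9.27, 8.31 and 7.43 to 10.82, 10.78 and 10.15, or by 2.25 ± 0.37 (adjusted p = 6.33e-05), and LIFR, a receptor of a related cytokine, by 1.96 ± 0.56. LIFR did not pass without the S pair (1.54). CALR (-0.09) and LIFR (0.86) did not pass with quantile scaling.

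Keratins, epithelial factors and mesenchymal genes held members that rose and members that fell. Of keratins and epithelial factors 10 of 29 rose and 7 fell (median 0.27), shares of 34.5% and 24.1% against 31.0% and 23.1% of all tested genes. Of mesenchymal genes 9 of 21 rose and 5 fell (median -0.06, or 0.36 with the non-mitochondrial scaling), shares of 42.9% and 23.8%. KRT17, a stress keratin, rose from between 5.30 and 5.84 to 10.31, 10.50 and 11.30, or by 5.10 ± 0.49 (adjusted p = 2.43e-07). KRT4, a keratin of mucosal epithelium, rose by 3.69 ± 0.53. VIM, the mesenchymal intermediate filament, fell from 11.85, 11.38 and 11.98 to 7.73, 4.78 and 9.18, a log2 fold change of -4.51 ± 0.50 (adjusted p = 1.09e-06).

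Among genes of surfactant, club and alveolar cells 7 of 16 rose and 2 fell (median 1.12), or 3 and 2 with quantile scaling. The shares were 43.75% and 12.5% with the deposited scaling, against 31.0% and 23.1% of all tested genes. With quantile scaling 2963 of all 14237 tested genes rose and 3418 fell. AGER (2.88 ± 0.36), CLIC5 (4.47 ± 0.36) and RTKN2 (2.68 ± 0.25) are markers of the flat type 1 cells that line the alveoli. They were picked from the called members of the list, and 7 of the 16 tested members were not called. Whether markers of type 1 cells rose as a set was not tested. RTKN2 had 10.44, 11.37 and 11.53 at day 0 and 13.63, 13.96 and 13.79 at day 28 (adjusted p = 1.34e-07). With the widest span per gene the log2 fold change of RTKN2 was 1.33. CEACAM6, an adhesion molecule, fell by 4.33 ± 1.24, with no read in day 28 G2, and did not pass without the G1 or the S pair. Of the same genes 3 rose without the S pair, 0 fell without the G1 pair and 0 fell without the S pair.

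Among laminins, collagens and other basement membrane genes 16 of 29 rose and 5 fell (median 1.31). COL16A1, a fibril-associated collagen, went from 12.57, 12.37 and 11.79 to 16.68, 15.73 and 15.89, or by 3.86 ± 0.23 (adjusted p = 1.46e-09). The basement membrane chains COL4A2 (2.78), COL4A3 (2.70) and LAMB2 (1.92) rose too. COL13A1, a membrane collagen, fell by 3.37 ± 0.45, and so did LAMA4 (-2.93), COL6A1 (-2.76) and COL6A2 (-2.03). The median span of the list was 114 kb, and its median change was 0.83 with the olfactory density subtracted and 0.19 with the span trend removed. COL4A2 did not pass without the S pair (2.22). COL4A2 (1.36) did not pass with quantile scaling. COL4A2 (1.32) did not pass with the span trend removed. COL4A3 (1.57) was over 1.5 times smaller with the span trend removed.

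Several lists of signalling factors that rose hold long genes. Of semaphorins, plexins, netrins and slits, cues of axon guidance and cell migration, 24 of 34 rose and 2 fell (median 2.01). SEMA5A had 8.21, 8.37 and 9.0 at day 0 and 14.24, 12.61 and 13.29 at day 28, a rise of 4.85 ± 0.33 (adjusted p = 4.84e-09). With the olfactory density subtracted the list's median was 0.97, and SEMA5A stood at 5.12. Among YAP and TEAD genes, which respond to cell shape and crowding, 14 of 30 rose and 4 fell (median 0.62). These are 46.7% and 13.3%, against 31.0% and 23.1% of all tested genes. The transcription factor TEAD1 (3.71 ± 0.29), the YAP inhibitor PTPN14 (3.76 ± 0.27) and YAP1 (1.77) itself rose. The classical target CCN1 (0.70) rose, while CCN2 (1.11) and ANKRD1 (0.22) did not pass. CCN1 did not pass without the G2 pair (0.66). CCN2 passed without the S pair (1.68). CCN2 (1.52) passed with the non-mitochondrial scaling. CCN2 (1.42) passed with the span trend removed. SEMA5A (2.91), TEAD1 (2.43) and YAP1 (0.83) were over 1.5 times smaller with the span trend removed.

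The Notch coactivators MAML2 (3.80 ± 0.32) and MAML3 (3.48 ± 0.29) led a list of which 8 of 20 rose and 1 fell (median 0.56), against 31.0% and 23.1% of all tested genes. Without the S pair 5 rose, while calls of higher genes over all tested genes went from 4410 to 3258. TCF7L1 (3.89 ± 0.31) and TCF7L2 (2.45 ± 0.36), which carry the Wnt signal to DNA, rose in a list of which 12 of 31 rose and 5 fell (median 0.54), shares of 38.7% and 16.1%. In that list 3 fell without the G1 pair, 2 fell without the S pair and 3 fell without the G2 pair. MAML2 (1.79), MAML3 (1.30), TCF7L1 (2.59) and TCF7L2 (0.95) were over 1.5 times smaller with the span trend removed.

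Among nuclear receptors 10 of 29 rose and 4 fell, shares of 34.5% and 13.8% against 31.0% and 23.1% of all tested genes (median 0.60, or -0.02 with the span trend removed). The orphan receptor NR6A1 (3.50 ± 0.29) rose, and NR1I2, the pregnane X receptor, fell by 3.57 ± 0.92. Of the same genes 5 rose without the S pair. CYP26A1, which breaks down retinoic acid, rose from between 8.90 and 9.59 to between 11.94 and 12.70, or by 3.19 ± 0.28 (adjusted p = 7.20e-08). Clock genes rose in 7 of 17 cases and fell in 4, shares of 41.2% and 23.5% (median 0.48, or -0.02 with quantile scaling), with RORA (3.06 ± 0.34) and NR1D2 (2.17 ± 0.32) higher and BHLHE41 (-2.47 ± 0.45) lower. RORA (0.35) did not pass with the span trend removed. NR6A1 (1.86) was over 1.5 times smaller with the span trend removed.

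Of 39 histone lysine demethylases and methyltransferases 17 rose and 3 fell (median 0.54, or -0.19 with the span trend removed). These are 43.6% and 7.69%, against 31.0% and 23.1% of all tested genes. KDM2A (1.83 ± 0.27), KDM5A (1.49), KMT2A (1.63) and KDM6A (1.41) rose, of which KDM6A stood at -0.19 with the span trend removed, and KDM1A (-1.49) and the heterochromatin enzymes SUV39H1 (-1.06) and SUV39H2 (-1.42) fell. Among phosphodiesterases and adenylyl cyclases of cAMP 15 of 22 rose and 1 fell (median 1.93), on a median span of 190 kb. With the olfactory density subtracted their median was 0.15, with 3 higher and 1 lower. SUV39H1 did not pass without the G1 pair (-0.50) or without the S pair (-1.11). SUV39H1 (-0.65) did not pass with the non-mitochondrial scaling. SUV39H1 (-0.93) did not pass with the span trend removed. KDM2A (0.79), KDM5A (0.68) and KMT2A (0.97) were over 1.5 times smaller with the span trend removed.

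Of the 13 mRNAs of the mitochondrial genome, which encode subunits of the respiratory chain and ATP synthase, 12 rose and 0 fell (median 1.51). MT-ND5 had 16.54, 16.56 and 16.74 at day 0 and 19.17, 19.35 and 18.54 at day 28, a rise of 2.41 ± 0.28 (adjusted p = 2.18e-06). MT-ND6, on the other strand of the mitochondrial DNA, rose by 3.55 ± 0.25, and MT-ND3 (0.32) did not pass. With quantile scaling 8 rose. MT-ND3 (0.74) passed with the non-mitochondrial scaling. MT-ND3 (0.76) passed with the span trend removed.

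**Figure D4:**
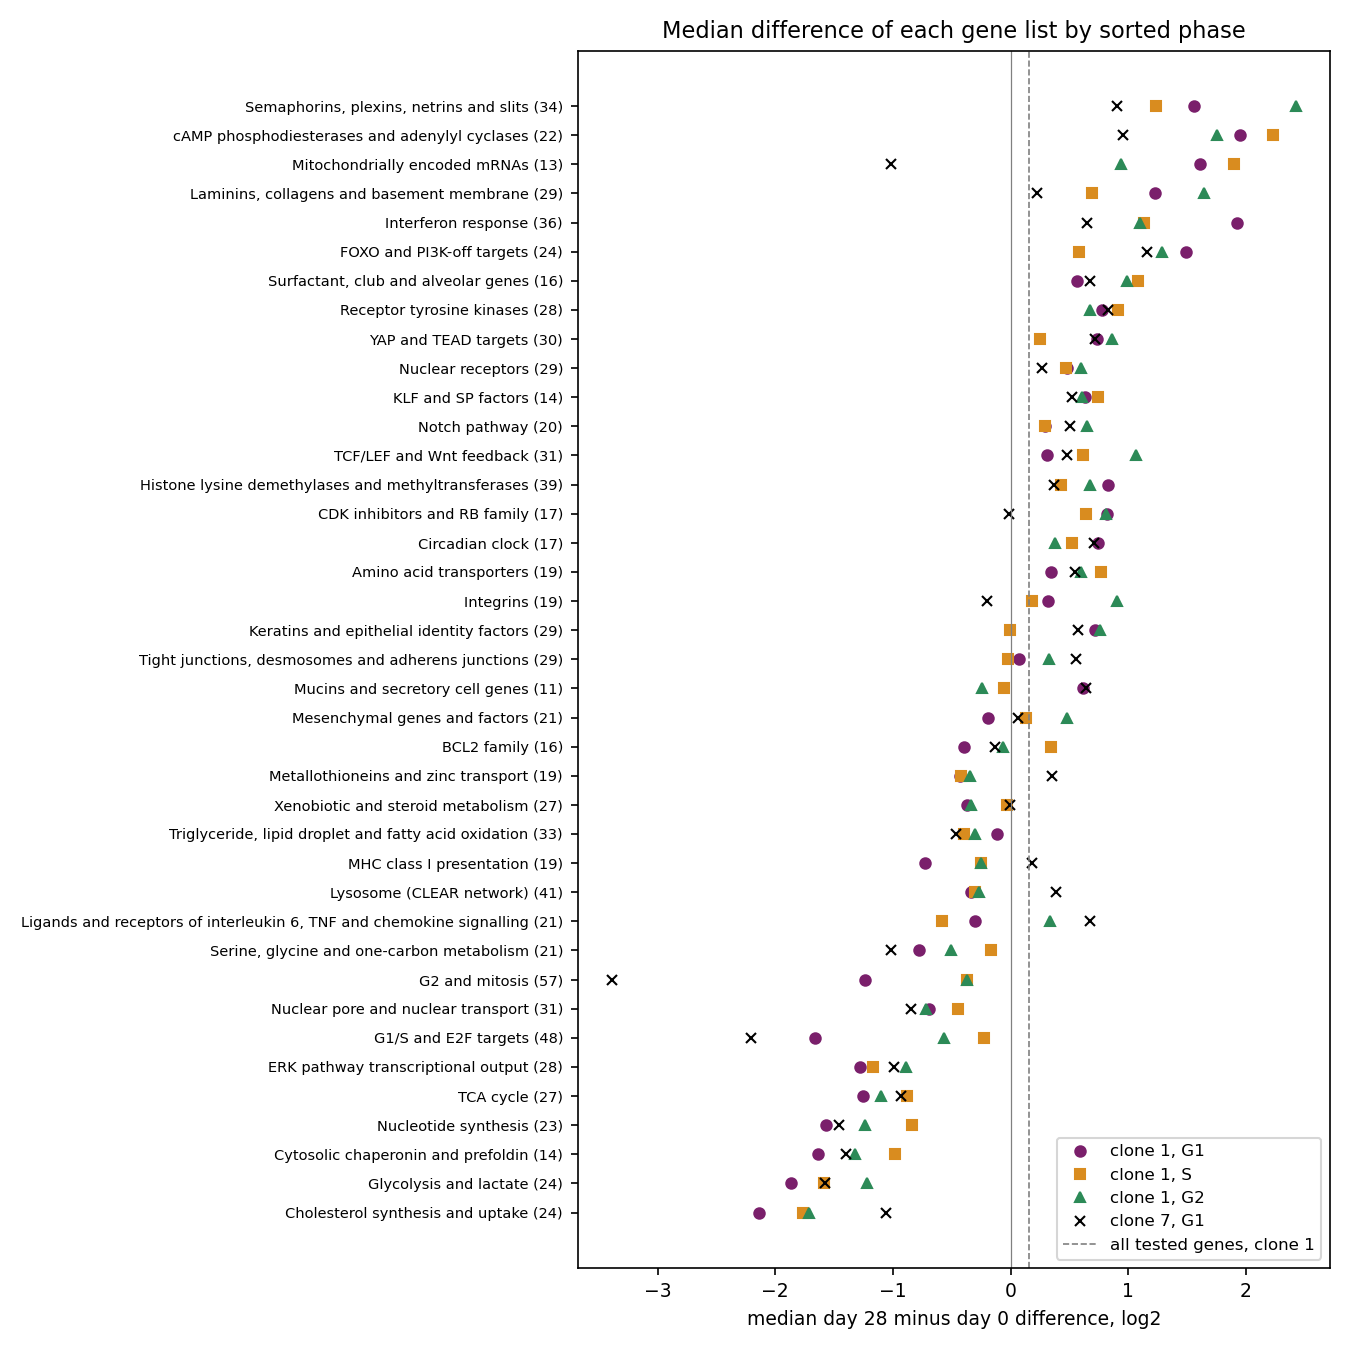
Median day 28 minus day 0 log2 difference of each gene list within the G1, S and G2 pairs of clone 1 and within the G1 pair of clone 7, with the number of tested genes in parentheses, and lines at 0 and at the median of all tested genes (0.16). Cholesterol synthesis lies low and the axon guidance cues lie high in all 3 pairs of clone 1, and the mitochondrial mRNAs of clone 7 lie at -1.02 against a clone 1 median of 1.51.

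The G1 pair of clone 7 shares no library with clone 1. Of the genes called higher in clone 1, 3854 of 4410 (87.4%) were higher at day 28 in that pair, against 52.0% of all tested genes. Of those called lower, 2949 of 3294 (89.5%) were lower, against 48.0%. With 1 library a day the pair has no replicate check. In it EGFR differed by 1.07, DUSP6 by -7.20 (from 266 reads at day 0 and 9 at day 28), AXL by -1.55 and BCL2L11 by 1.09, each in the direction of clone 1.

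A clone-by-day term compared the change in clone 1, a mean over G1, S and G2, with that in clone 7. The day 28 arm of clone 7 is 1 G1 library, assumed to vary like the others. A response particular to G1 cannot be told apart from a clone difference. The term therefore sets that library against clone 1, and it has no replicate check. It passed for 22 genes, or 0.155% of those tested, with 1835 genes at an unadjusted p under 0.05. The count was 0 without the variance trend in limma (1498 at an unadjusted p under 0.05), 4 with a pseudocount of 0.1 and 133 with no filter on low values, so the genes that follow are given as values of these libraries. TGM2 differed by -3.66 in clone 7 against -6.72 in clone 1 (adjusted p = 0.0433), and CPM, a carboxypeptidase, by 1.27 against 4.14 (adjusted p = 0.0417). KLK6, a secreted protease, fell in clone 1 (-2.78 ± 0.24) and stood at 0.32 in clone 7 (adjusted p = 0.0359). ITGA6, the laminin-binding integrin subunit, rose in clone 1, by 1.28, 0.97 and 1.01, and stood at -1.27 in clone 7 (adjusted p = 0.0417). OGT, which adds N-acetylglucosamine to proteins, rose in clone 1, by 1.46, 0.69 and 0.82, and stood at -2.0 in clone 7 (adjusted p = 0.0242). ITGA6 (0.51) did not pass with the span trend removed.

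MT-ND2, a subunit of complex I, was higher at day 28 by 1.69, 2.03 and 0.87 in clone 1 and stood at -1.99 in clone 7 (adjusted p = 0.0419 for the difference). The other 12 mitochondrial mRNAs did not pass this test. The mitochondrial share of reads in the G1 libraries of clone 7 was 10.7% at day 0 and 8.61% at day 28, and the former was the shallowest library of the series, with 8.83 M reads. The median of the G2 and mitosis list was -3.39 in the clone 7 pair and -1.24 in the G1 pair of clone 1, a difference that was not tested. NUF2, a kinetochore protein, passed the term (-4.45 in clone 7, adjusted p = 0.0419), while MKI67 (-5.85, adjusted p = 0.0861) did not.

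**Figure D5:**
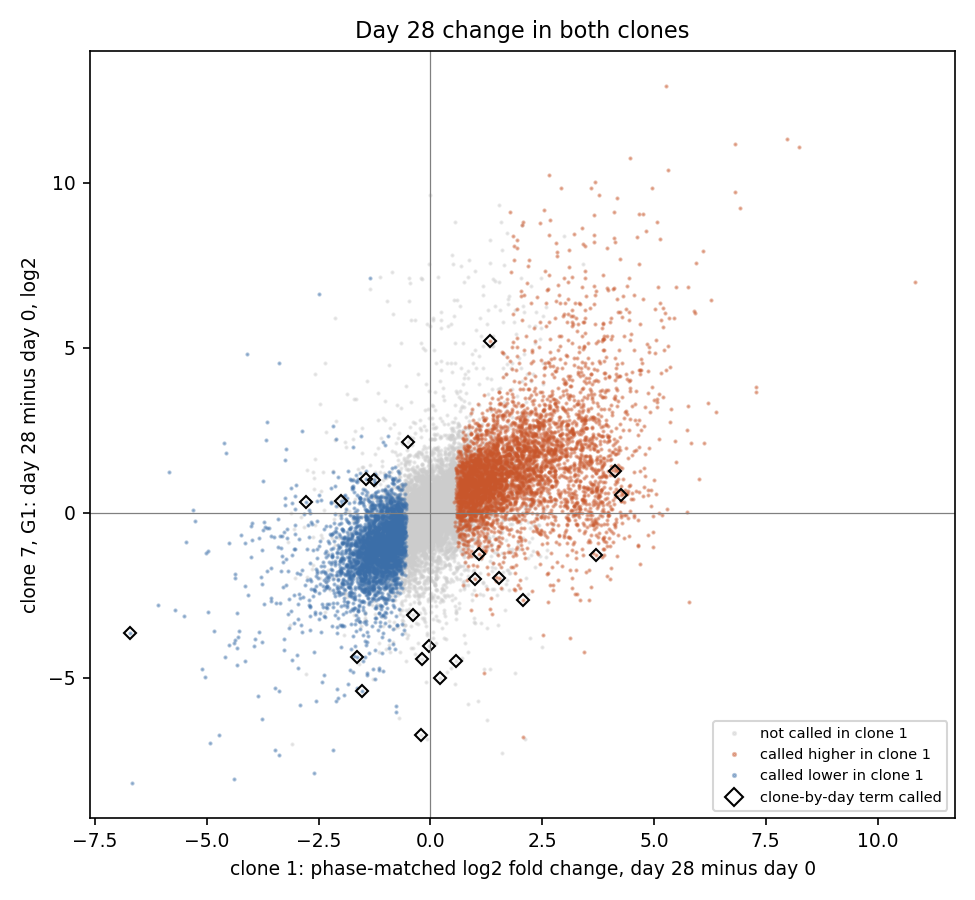
Phase-matched log2 fold change in clone 1 (horizontal) against the day 28 minus day 0 difference in the G1 pair of clone 7 (vertical), with 1 point a tested gene, coloured by its call in clone 1. Open diamonds are the 22 genes with a called clone-by-day term, and most coloured points lie in the quadrants where both clones move the same way.

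Among called genes of clone 1 with at least 100 reads on average and a change of at least 2-fold, 427 of 4671 (9.14%) moved the other way in clone 7. The naming rule took 6 of them, and their order depends on the pseudocount, since some had no read in a clone 7 library. In the G1 libraries of clone 7, TADA2B (-1.34 in clone 1) gave 0 reads at day 0 and 56 at day 28, GATM (-2.49) 0 reads at day 0 and 40 at day 28 and GSTM1 (-4.10) 0 reads at day 0 and 11 at day 28. CCDC163 (2.07) gave 263 reads at day 0 and 12 at day 28, PIF1 (1.20) 19 reads at day 0 and 3 at day 28 and SSUH2 (1.38) 68 reads at day 0 and 42 at day 28. The clone 7 day 0 library was the shallower, with 8.83 M reads against 33.5 M. None of these 6 passed the clone-by-day test, with adjusted p between 0.104 and 0.242. TADA2B did not pass without the G1 pair (-1.27) or without the S pair (-1.43), CCDC163 without the G1 pair (0.78), PIF1 without the G2 pair (0.74) and SSUH2 without the G1 pair (1.26) or without the G2 pair (0.81). TADA2B (-0.92) did not pass with the non-mitochondrial scaling. CCDC163 (0.99), PIF1 (0.69) and SSUH2 (0.52) did not pass with quantile scaling. SSUH2 (1.20) did not pass with median-of-ratios scaling.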

How the data were processed

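RNA-seq of 9 libraries was used, 6 of them from clone 1. The authors deposited 1 table of log2 values for 80037 transcripts. HISAT2 2.1.0, GRCh38 and DESeq2 are named, per the submitters' processing notes, with no version of DESeq2; the counting and scaling steps are not given in the sources used here. Of deposited values up to 1000 reads, 100% came out as whole reads within 0.05, with 0.9 entered where there was none. A span nested in another held more reads in 0 of 1053042 comparisons, so a value counts reads over the whole span, and nested or overlapping genes are uncertain.

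Genes had to reach 10 reads per library on average. Values were back-transformed, a pseudocount of 1 was added, and limma 3.58.1 (R 4.3.3) was fitted on the log2 scale with phase as a block and a trended variance (Benjamini-Hochberg adjusted p under 0.05). A fold change on the log2(value + pseudocount) scale understates changes of low genes. The edgeR fit that had been planned was not used, because the deposited unit is log2 and not counts. Pairs come from the phase label and share no replicate number. In simulated data for 14237 genes, 99 of 100 genes changed 4-fold and 49 of 100 changed 2-fold were called, with 4 false calls. The simulated reads were drawn independently, with a dispersion of 0.05 for every gene. The spread of the real libraries was not simulated, so these counts do not measure false calls in the real data.

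The members and lists were chosen with earlier results of these data known. Genes were named by rule: the 12 largest changes and 12 largest moderated t each way among called genes with at least 100 reads on average, no overlap of days, 1 direction in all phases and a call also with the olfactory density subtracted, up to 4 called members of each of 39 lists, 16 genes whatever their result, the 5 largest uncalled differences each way and the 6 most opposed in clone 7. Some of these genes are not reported here, and further list members were named after their values were seen. Alternatives were other scalings, filters, pseudocounts, background and span corrections, other models and leaving out each pair. Figures were drawn with matplotlib 3.10.9, and tables were handled with pandas 2.3.3 and numpy 2.4.6 in Python 3.11.15, with scipy 1.17.1 for intervals.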

Additional observations from a re-analysis of the deposited data

Results flagged for a closer look

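For 22 genes the clone-by-day term passed (limma, adjusted p under 0.05). It rests on 1 day 28 library of clone 7, whose spread was assumed and not measured, and 0 genes passed without the variance trend (1498 at an unadjusted p under 0.05). The term is the clone 7 change, with G1 alone at day 28, minus the clone 1 change over G1, S and G2, in log2 units. It was negative for 15 genes: ACOX2 (-6.48), ADAM19 (-2.75), CPM (-2.95), DENND2A (-4.69), GPC6 (-4.48), GREB1L (-3.47), IL1RAPL2 (-4.26), ITGA6 (-2.58), KRT5 (-3.88), MT-ND2 (-3.41), NUF2 (-3.72), OGT (-2.94), RAMP1 (-3.77), SIX2 (-5.18) and SLC35G2 (-2.79). It was positive for 7: CST6 (2.51), KLK6 (2.93), KRT16 (3.39), PLAAT3 (2.41), TGM2 (2.98), TMBIM6 (2.22) and TUBA4A (2.18). Of these genes 15 were also called in clone 1. KRT5, a basal keratin, differed by -0.26, -0.27 and 0.45 in G1, S and G2 of clone 1 and by -4.04 in clone 7, while KRT16, a stress keratin, differed by 1.54, 1.33 and 1.15 and by 5.21. RAMP1, a partner of the calcitonin receptor-like receptor, differed by -2.15, -1.21 and -1.22 and by -5.40.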

How the results depend on the processing

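Of 4410 higher and 3294 lower genes, the counts moved by over 1.5 times in these settings. With no filter on low values 411 rose and 323 fell, with the olfactory density subtracted 1763 and 1721, and with the span trend removed 2911 rose. The subtraction with at least 100 reads, chosen after seeing the data, gave 2321 higher. The non-mitochondrial scaling gave 1714 lower and a variance without trend 2084 lower. Leaving out 1 pair gave 3258 to 4128 higher and 2454 to 2928 lower. Without the phase block, so with no pairing of libraries, 3719 rose and 2536 fell. The clone-by-day count of 22 was 5 with quantile scaling, 37 with the non-mitochondrial scaling, 133 with no filter, 48 with at least 100 reads, 4 and 46 with pseudocounts of 0.1 and 5, 5 with the olfactory density subtracted, 1 with at least 100 reads as well, and 0 without the trend (1498 genes at an unadjusted p under 0.05). The cause of these shifts was not tested. Of gene lists whose median lay farther from 0 than the SD over the pairs, those that changed sign had medians of 0.15 for fat metabolism, 0.0643 for lysosome, 0.0978 for MHC class I, 0.26 for zinc genes and 0.22 for xenobiotic metabolism with the non-mitochondrial scaling. With quantile scaling it was -0.0239 for clock. With the span trend removed they were -0.0184 for nuclear receptors and -0.19 for histone enzymes. Over all 9 libraries with the clone as a block it was 0.14 for xenobiotic metabolism. Over all 9 libraries without the clone it was 0.0017 for xenobiotic metabolism. The log2 fold changes of single genes that changed sign became -0.17 for ANKRD1 with quantile scaling. Over all 9 libraries with the clone as a block they were -0.022 for CCDC163, 0.0762 for CDKN1A, -0.30 for CDKN1B, -0.33 for MT-ND3, -0.21 for PIF1, 0.43 for TADA2B and 0.061 for TM7SF2. With voom it was 0.34 for CCNE2. With the non-mitochondrial scaling they were 0.26 for CDKN1A, 0.23 for IRF1, 0.39 for KRT5, 0.0009 for MCL1, 0.10 for SREBF2 and 0.26 for TM7SF2. With the span trend removed they were 0.16 for CDKN1A, -0.24 for IGF1R, -0.19 for KDM6A, 0.19 for KRT5 and 0.0921 for TM7SF2. Over all 9 libraries without the clone they were 0.19 for CDKN1A, -0.27 for CDKN1B, 0.0725 for GATM, 0.0009 for IRF1, -0.28 for MT-ND3, -0.24 for PIF1, 0.90 for TADA2B and 0.0992 for TM7SF2. With median-of-ratios scaling it was -0.14 for CDKN1B. Medians within that SD also changed sign, in ranges over all settings of -0.32 to 0.28 for the BCL2 family, -0.32 to 0.52 for cell junctions, -0.33 to 0.36 for mesenchymal genes and -0.50 to 0.47 for mucins. Leaving out 1 pair changed the sign of CCNE2 (-2.33 to 0.69), CDKN1A (-0.74 to 0.17), CDKN1B (-0.063 to 0.19) and KRT5 (-0.27 to 0.0937). Of the changes given for 182 called genes, 44 kept their call in every alternative run. With no filter 137 lost it; that fit had 2.80 degrees of freedom in all, and the subtraction 3.47, against 19.3. With 1 pair left out the variance came from the trend alone. Called values moved by over 1.5 times and kept their call for BCL2L11 (1.13), CANX (-0.72), CCN1 (1.16), CCT7 (-1.06), ENO1 (-1.65), EPCAM (-0.67), EPSTI1 (2.46), HBEGF (-2.89), IRS1 (-2.36), KRT7 (-1.0), LDHB (-1.53), SUV39H1 (-1.65) and TADA2B (-2.38) with quantile scaling, for CALR (-0.64), CANX (-0.72), CCN1 (1.12), ENO2 (1.20) and KRT8 (-0.68) with the non-mitochondrial scaling, for COL13A1 (-10.42), LRP2 (11.23) and NR1I2 (-7.53) with the olfactory density subtracted, for RTKN2 (1.33) with the widest span per gene and, with 1 pair left out, for CCDC163 (3.23), SSUH2 (2.07) and TXNIP (-1.42). Calls were also lost by AREG, BAK1, BHLHE41, BIRC5, BMF, CCDC163, CCND1, CDKN2B, CENPA, COL4A2, ENO2, EPSTI1, FOXO3, GINS2, GSTM1, HBEGF, IRS1, KDM6A, KRT18, KRT7, KRT8, KRT81, LIFR, LIN9, MET, MKI67, MT-ND2, MYC, OAS2, PFKFB4, PIF1, PIK3R1, PRIM1, RIGI, RORA, SCD, SSUH2, STAT2, SUV39H1, SUV39H2, TADA2B, TCF7L2, TRIB1, TXNIP and VIM with the olfactory density subtracted, by AREG, BIRC5, BMF, CCDC163, CCN1, CCNB1, CDKN2B, CENPA, EGR1, ENO2, GSTM1, KRT16, KRT81, LIN9, MKI67, PIF1, SSUH2, SUV39H1, TPX2, TRIB1 and TXNIP without the phase block, and by AREG, CCDC163, CCN1, CCND1, CENPA, ENO2, GSTM1, KRT81, MKI67, MYC, PIF1, PINK1, SSUH2, SUV39H1, TRIB1 and TXNIP without the variance trend.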

Other observations

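Further gene families, chosen after their values were seen, moved in clone 1. Their counts are to be read against 31.0% higher and 23.1% lower of all tested genes. Of 15 genes of the sarcomere and smooth muscle 11 rose and 1 fell (median 3.31, and 2.13 in the G1 pair of clone 7). They include the troponin genes TNNT2 (5.19) and TNNI2 (4.76), the myosin light chain MYL9 (3.85) and the actin-binding TAGLN (3.31), and MYL7 is a member. All 6 tested pregnancy-specific glycoproteins rose (median 5.11). They are near-identical paralogs, so the value of each is uncertain. All 6 tested glypicans, proteoglycans of the cell surface, rose (median 3.10), and their median was 1.15 with the olfactory density subtracted and 0.86 in clone 7.

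Machines of protein import and degradation were lower. Of 25 translocase subunits of the mitochondrial membranes 21 fell and 1 rose (median -1.28, and -1.25 in clone 7). Of 17 subunits of the proteasome core 16 fell and 0 rose (median -1.22), and of 9 subunits of the COP9 signalosome, which removes NEDD8 from cullins, 8 fell and 0 rose (median -1.09). The medians of all these families kept their sign under the median-of-ratios, quantile and non-mitochondrial scalings.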
